A study of Mus musculus with 24 samples.

Results

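Protein-coding genes of the Dlk1-Dio3 imprinted region on mouse chromosome 12 and the genes at its edges were examined in 129/DBA hybrid E13.5 embryos. They are Wdr25, Begain, Dlk1, Rtl1, Dio3 and Ppp2r5c, which are 6 of the 34745 genes in the deposited table. Each was taken by its gene symbol. The genes were chosen with the contrast of M-Z- to M-Z+ in this same table in view, so their differences between the groups are given as a description, without p-values. RNA-seq had been performed with 6 M-Z+ embryos (Zfp57-/+) and 6 M-Z- embryos (Zfp57-/-), with 1 library per whole embryo. ZFP57 is a KRAB zinc finger protein that keeps DNA methylation at imprinting control regions. The embryos came from Zfp57-/- 129 mothers and Zfp57+/- fathers that were mainly on the DBA/2J background. Therefore all 12 embryos lacked maternal Zfp57, and only the M-Z+ embryos carried a wild-type allele, from the father. No embryo of this RNA-seq set had maternal Zfp57, and the bisulfite sequencing samples of the series were not analysed here. The labels give neither sex, litter nor batch.

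The Dlk1-Dio3 region is a cluster of imprinted genes. Dlk1, Rtl1 and Dio3 are known to be expressed mainly from the paternal chromosome, and the noncoding RNAs Meg3, Rian and Mirg from the maternal chromosome. A methylated control region between Dlk1 and Meg3, the IG-DMR, marks the paternal chromosome in normal embryos. DLK1 is a transmembrane relative of the Notch ligands that holds back the maturation of fat precursor cells. RTL1 is a protein derived from a retrotransposon and is needed in the placenta and its fetal vessels. DIO3 is the deiodinase that inactivates thyroid hormone and protects fetal tissues from too much of it. BEGAIN is associated with scaffold proteins of the postsynaptic density, WDR25 is a WD repeat protein, and PPP2R5C is a regulatory subunit of the phosphatase PP2A.

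Positions follow GRCm38 as in the deposited table. Wdr25 (ENSMUSG00000040877) lies from 108894272 to 109028452 and Begain (ENSMUSG00000040867) from 109032187 to 109068217, with 3.73 kb between them. Dlk1 (ENSMUSG00000040856) lies from 109452823 to 109463336, which is 385 kb past the end of Begain. Rtl1 (ENSMUSG00000085925) lies from 109589194 to 109600330 and Dio3 (ENSMUSG00000075707) from 110279068 to 110281097, with 679 kb between them. Ppp2r5c (ENSMUSG00000017843) lies from 110485739 to 110583061, at 205 kb past Dio3. Begain and Rtl1 are on the minus strand and the other 4 genes on the plus strand. No other row of the table overlapped Wdr25, Dlk1, Rtl1, Dio3 or Ppp2r5c. Begain shared 469 bases with the row Gm28498, which had 0 to 2 counts in any embryo.

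The row of Rtl1 is crossed on the opposite strand by a maternal transcript that carries miRNAs. These miRNAs are shown because the treatment of strand in the counting is not given in the sources used here, so reads of that transcript could have been added to Rtl1. RefSeq (GRCm38.p6) listed 13 mature miRNAs within the bounds of Rtl1, and 11 of them were on the plus strand, opposite to Rtl1. Each of these 11 was an exact reverse complement of a stretch of the Rtl1 transcript of GENCODE vM1, which is 6357 bases long, and all 11 stretches lay in its coding part from base 148 to base 5382. The 13 miRNAs had 13 different seeds. The 3p arm of each hairpin on the plus strand, or the only arm listed, is printed here with the seed, bases 2 to 8, in capitals.
mmu-miR-431-3p (chr12:109590502-109590523, plus strand): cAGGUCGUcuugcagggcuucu
mmu-miR-433-3p (chr12:109591781-109591802, plus strand): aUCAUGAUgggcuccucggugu
mmu-miR-127-3p (chr12:109592888-109592909, plus strand): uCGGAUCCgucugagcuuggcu
mmu-miR-434-3p (chr12:109594565-109594586, plus strand): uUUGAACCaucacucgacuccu
mmu-miR-432 (chr12:109595006-109595028, plus strand): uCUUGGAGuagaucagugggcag
mmu-miR-136-3p (chr12:109595366-109595387, plus strand): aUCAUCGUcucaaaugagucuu
The stretch of the Rtl1 transcript complementary to mmu-miR-127-3p starts at base 2642 from its 5′ end and reads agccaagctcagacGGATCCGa, where the capitals mark the bases opposite to the seed.

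The promoters of Dlk1 and Dio3 are shown because the levels of both genes were lower in M-Z- embryos. RefSeq windows from 250 bases before to 50 bases after a start site matched 4 of the 6 genes by symbol (Begain, Dlk1, Dio3 and Ppp2r5c). Capitals mark TGCCGC, the hexamer known to be bound by ZFP57, and TATAAA, the TATA box hexamer, each searched on both strands.
Dlk1 (chr12:109452573-109452872, plus strand): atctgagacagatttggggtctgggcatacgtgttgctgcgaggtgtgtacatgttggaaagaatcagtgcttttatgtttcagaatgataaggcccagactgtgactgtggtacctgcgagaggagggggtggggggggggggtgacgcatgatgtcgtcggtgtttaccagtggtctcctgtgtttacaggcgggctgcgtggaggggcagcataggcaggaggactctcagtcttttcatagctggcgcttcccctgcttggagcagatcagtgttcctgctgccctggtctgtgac
Dio3 (chr12:110278980-110279279, plus strand): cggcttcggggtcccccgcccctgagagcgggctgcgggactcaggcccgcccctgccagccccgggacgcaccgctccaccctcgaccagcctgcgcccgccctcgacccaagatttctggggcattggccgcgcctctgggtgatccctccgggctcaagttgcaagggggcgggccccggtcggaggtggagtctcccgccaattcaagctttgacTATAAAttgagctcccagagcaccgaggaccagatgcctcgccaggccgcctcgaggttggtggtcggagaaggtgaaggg
The window of Dlk1 held 9 CpG sites with 55.7% G and C, and held neither hexamer. The window of Dio3 held 25 CpG sites with 69% G and C and a TATAAA that starts at position -31 from the start site. This start site lies 162 bases past the start of the Dio3 row. None of the 5 windows of Begain held TGCCGC, whereas 1 of the 2 windows of Ppp2r5c held it 3 times. The start site of that window lies 38217 bases before the Ppp2r5c row. The other window, with its start site 58 bases past the start of the row, did not hold TGCCGC. Of all 32851 windows of this length, 11.6% held TGCCGC and 13.6% held TATAAA, with a median of 7 CpG sites. These matches are descriptions of the letters in these windows, and the IG-DMR was not searched.

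The total count on genes was between 12347383 and 19216288 in M-Z+ embryos and between 12005145 and 14617373 in M-Z- embryos. The level of Zfp57 itself was 19.1 CPM at the lowest, 23.7 at the median and 40.8 at the highest of the M-Z+ embryos, where CPM is the TMM-normalized read count per 1e6 reads. The M-Z- embryos lay within that range except for the lowest, at 17.8, 26.5 and 27.8 CPM, and the means did not differ by more than the embryos did (two-sided exact permutation p = 0.532). The count covers the whole gene and not the mutated part alone, so it does not check the genotype labels. The libraries also differed in how CPM depended on gene length. The gene length slope, the change in log2 CPM per doubling of gene length, was 0.118 to 0.393 in M-Z+ and 0.232 to 0.393 in M-Z- embryos (exact permutation test, two-sided, p = 0.26). The slope set 3 libraries apart, M-Z+ replicate 6 at 0.393 and M-Z- replicates 5 and 6 at 0.382 and 0.393, whereas the next was at 0.275.

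A gene was called with an adjusted p below 0.05 in edgeR's quasi-likelihood test over all genes tested and a log2 fold change beyond 0.5. All 6 genes passed the filter on low counts, and by this rule 4 of them, Begain, Dlk1, Rtl1 and Dio3, counted as lower in M-Z- embryos, as did 0.0374% of the 16026 genes tested. Since the genes were chosen from this contrast, the calls only describe them, are no test of them, and nothing is read from the share. The same 4 genes had CPM ranges that did not overlap between the groups, with all M-Z+ embryos above all M-Z- embryos, as had 0.275% of the genes tested. The ranges of Wdr25 and Ppp2r5c overlapped, and neither was called. The median log2 fold change of the 6 genes was -1.37, beside -0.0072 over all genes tested. The log2 fold changes without the 3 libraries of the steepest slope, a choice made after the data were seen, were -0.26 for Wdr25, -1.01 for Begain, -2.35 for Dlk1, -1.81 for Dio3 and -0.0092 for Ppp2r5c.

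**Figure D1:**
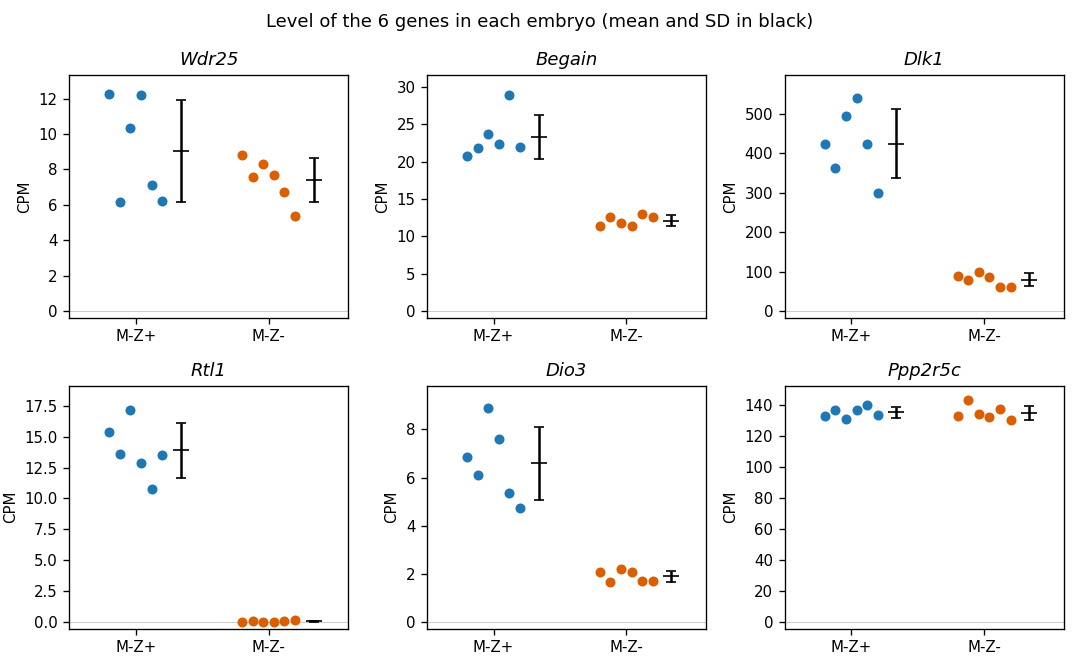
Each panel plots the CPM of 1 gene (vertical axis, from 0) in the 6 M-Z+ (blue) and 6 M-Z- (orange) embryos, with the mean and SD of each group in black. Begain, Dlk1, Rtl1 and Dio3 do not overlap between the groups, and the points of Wdr25 and Ppp2r5c do.

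Dlk1, the Notch ligand relative, had the highest counts of the 6 genes in M-Z+ embryos, with 4719 to 10034 counts per embryo. Its level in M-Z+ embryos was 300.0 CPM at the lowest, 424 at the median and 541 at the highest. In M-Z- embryos it was 60.5 CPM at the lowest, 82.7 at the median and 99.5 at the highest, from 859 to 1184 counts. The lowest M-Z+ embryo was replicate 6 and the lowest M-Z- embryos were replicates 5 and 6, which are the 3 libraries of the steepest gene length slope. The M-Z+ mean was 425 ± 87.0 CPM and the M-Z- mean 79.5 ± 15.8 CPM (SD, n = 6 each), so M-Z- embryos kept 0.187 of the M-Z+ level. On the log2 scale this is a difference of -2.42 (standard error, SE, 0.16), and of -2.35 (SE 0.13) without the 3 libraries. Relative to the mean, Dlk1 had a coefficient of variation (SD over mean) of 20.5% in M-Z+ and 19.8% in M-Z- embryos. Counting error alone would give 1.24% and 3.11%.

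Rtl1, the gene derived from a retrotransposon, was close to absent from M-Z- embryos. M-Z+ embryos had 191, 177, 226, 238, 164 and 260 counts in replicates 1 to 6. M-Z- embryos had 0 counts in replicates 1, 3 and 4, 1 count in replicates 2 and 5, and 2 counts in replicate 6. No M-Z- embryo came near any M-Z+ embryo. For the 3 libraries at 0, the 3 counts that a count of 0 allows correspond to 0.249, 0.252 and 0.229 CPM in replicates 1, 3 and 4. In M-Z+ embryos Rtl1 was at 10.7 CPM at the lowest, 13.6 at the median and 17.2 at the highest. The sums of 1256 and 4 counts give a ratio of 271 after normalization (95% exact binomial interval 106 to 996, counting error only). The fitted value of -7.87 on the log2 scale moves with the prior count of edgeR and is no bound. Rtl1 passed the filter on low counts only through the M-Z+ group. Any reads of the antisense miRNA transcript that were counted on Rtl1 were thus at most 2 per M-Z- embryo, and their share in M-Z+ embryos was not tested.

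Dio3, the deiodinase at the far end of the region, had few counts. M-Z+ embryos had 85, 79, 117, 141, 82 and 91 counts in replicates 1 to 6, whereas M-Z- embryos had 25, 22, 26, 27, 24 and 24. Its level in M-Z+ embryos was 4.74 CPM at the lowest, 6.47 at the median and 8.91 at the highest. In M-Z- embryos it was 1.64, 1.87 and 2.19 CPM, respectively. Every M-Z- embryo was therefore below the lowest M-Z+ embryo. The M-Z+ mean was 6.59 ± 1.52 CPM and the M-Z- mean 1.89 ± 0.244 CPM (SD, n = 6 each), which is 0.287 of the M-Z+ level, with a log2 fold change of -1.80 (SE 0.18). The coefficient of variation of Dio3 was 23.1% in M-Z+ embryos, where counting error alone would give 10.04%. It was 12.9% in M-Z- embryos, where counting error alone would give 20.1%, so spread beyond counting error was not detectable there at this depth.

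Dlk1 kept a smaller share of its level than Dio3 in M-Z- embryos. The count of Dlk1 divided by that of Dio3 in the same embryo was 55.7 to 78.8 in M-Z+ embryos, with a median of 62.6. It was 35.8 to 48.0 in M-Z- embryos, with a median of 42.8, and the ranges did not overlap. These ratios come from the same contrast as the choice of the genes and were not tested.

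Begain, the scaffold-associated gene on the proximal side of Dlk1, was at 20.8 CPM at the lowest, 22.2 at the median and 29.0 at the highest in M-Z+ embryos. In M-Z- embryos it was at 11.4, 12.2 and 13.0 CPM, respectively. The groups did not overlap, and M-Z+ replicate 5 was above the other M-Z+ embryos. The M-Z+ mean was 23.3 ± 2.95 CPM and the M-Z- mean 12.1 ± 0.706 CPM (SD, n = 6 each), which is 0.521 of the M-Z+ level. The log2 fold change of Begain was -0.94 (SE 0.094). Within M-Z- embryos its coefficient of variation was 5.83%, below the 7.91% that counting error would give.

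Wdr25, whose bounds end 3.73 kb from Begain, had groups that overlapped. It was at 6.17 CPM at the lowest, 8.75 at the median and 12.2 at the highest in M-Z+ embryos. In M-Z- embryos it was at 5.36, 7.64 and 8.81 CPM, within the range of the M-Z+ embryos except for the lowest embryo. The log2 fold change of Wdr25 was -0.29 (SE 0.20), and -0.064 (SE 0.14) with the gene length slope of each library in the model. Its r with the slope was -0.78 in M-Z+ and -0.87 in M-Z- embryos (exact permutation p = 0.0306 and 0.0278, adjusted p = 0.0655, n = 6; rho -0.83 and -0.6, p = 0.0583 and 0.242), and it was -0.78 and 0.33 without the 2 embryos farthest from the median slope. Wdr25 was the most variable of the 6 genes in M-Z+ embryos relative to its mean, with a coefficient of variation of 32.0% beside 8.54% from counting error. The M-Z+ replicates 1, 3 and 4 had 12.2, 10.4 and 12.2 CPM, and replicates 2, 5 and 6 had 6.17, 7.14 and 6.20 CPM. Of all genes tested, 87.1% had a smaller SD of log2 CPM than Wdr25 in M-Z+ embryos.

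Ppp2r5c, the PP2A subunit at the distal edge, was nearly the same in every embryo. It was at 131 CPM at the lowest, 135 at the median and 140.1 at the highest in M-Z+ embryos. In M-Z- embryos it was at 130.1, 133 and 143 CPM, and the groups overlapped. The log2 fold change of Ppp2r5c was -0.0027 (SE 0.051). Its coefficient of variation was 2.50% in M-Z+ and 3.48% in M-Z- embryos, where counting error would give 2.2% and 2.37%. Only 0.112% of the genes tested had a smaller SD of log2 CPM than Ppp2r5c in M-Z+ embryos, and 1.67% in M-Z- embryos. The standard error of Ppp2r5c was the smallest of the 6 genes.

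These counts are totals over both alleles of a whole embryo, and fewer expressing cells and less RNA per cell cannot be told apart. The summed CPM of 4 skeletal muscle markers was 329 to 584 in M-Z+ and 350 to 548 in M-Z- embryos. The sum of 4 liver markers was 3240 to 6442 CPM in M-Z+ and 2415 to 6052 CPM in M-Z- embryos, and that of 4 pituitary markers was 38.2 to 57.2 and 33.1 to 44.0 CPM. The sum of 4 neuron markers was 965 to 1433 CPM in M-Z+ and 946 to 1081 CPM in M-Z- embryos. All 4 neuron markers had values below 0 on the log2 fold change scale (median -0.22), and 2 of them had an unadjusted p below 0.05 in edgeR, as had 6.7% of all genes tested. Of these Stmn2, a protein of growing axons, was at 246 to 278 CPM in M-Z+ and 205 to 242 CPM in M-Z- embryos, without overlap. All 4 liver markers (median -0.28) and the 3 pituitary markers tested (median -0.42) also had values below 0. Of the 4 skeletal muscle markers 3 were below 0 and 1 above, and all 4 cartilage markers were above 0 (median 0.13). All 4 erythroid markers (median -0.195) and the 3 yolk sac markers tested (median -0.068) were below 0. The 4 heart markers (median 0.22) and the 4 endothelium markers (median 0.12) each had 3 values above 0 and 1 below. The ranges of the 4 sums overlapped, and their part in the levels of the 6 genes was not tested. No gene of the 10 marker lists was called. The sum of 6 trophoblast markers was 8.48 to 12.4 CPM in M-Z+ and 6.73 to 10.8 CPM in M-Z- embryos, and only Tfap2c of them was tested. Among these 6, Tpbpa, Prl3d1 and Prl2c2 had 0 counts in all 12 embryos.

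Levels of different genes were compared per kb of gene length. With the exon-union length of GENCODE vM1 the order in M-Z+ embryos was Dlk1 at 75.1 ± 15.4 CPM per kb (SD, n = 6), Ppp2r5c at 29.4 ± 0.735, Begain at 8.78 ± 1.11, Wdr25 at 3.30 ± 1.05, Dio3 at 3.25 ± 0.750 and Rtl1 at 2.19 ± 0.347. Dlk1, Ppp2r5c and Begain were separated from each other in all embryos, whereas the ranges of Wdr25, Dio3 and Rtl1 overlapped. In M-Z- embryos Ppp2r5c was the highest at 29.4 ± 1.02 CPM per kb (SD, n = 6), above Dlk1 at 14.1 ± 2.79 in every embryo. Begain followed at 4.57 ± 0.266, Wdr25 at 2.70 ± 0.449 and Dio3 at 0.930 ± 0.120, and these 3 ranges did not overlap. Rtl1 was the lowest at 0.0075 ± 0.0091 CPM per kb.

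The place of Dlk1 in M-Z+ embryos depended on the length that was used. The length behind the FPKM values of the authors was 16789 bases for Dlk1, above its genomic span of 10514 bases, and 3479 bases for Dio3, above its span of 2030 bases. Of all genes with a length, 5.12% had one above their genomic span. With these lengths Ppp2r5c was at 32.0 ± 0.799 and Dlk1 at 25.3 ± 5.18 CPM per kb in M-Z+ embryos (SD, n = 6), and their ranges overlapped. The order of the means of Rtl1, Dio3 and Wdr25 was reversed as well, at 2.19, 1.90 and 1.65 CPM per kb, again with overlapping ranges. Dividing by a length does not alter the fold changes between the groups, which were fitted on counts.

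**Figure D2:**
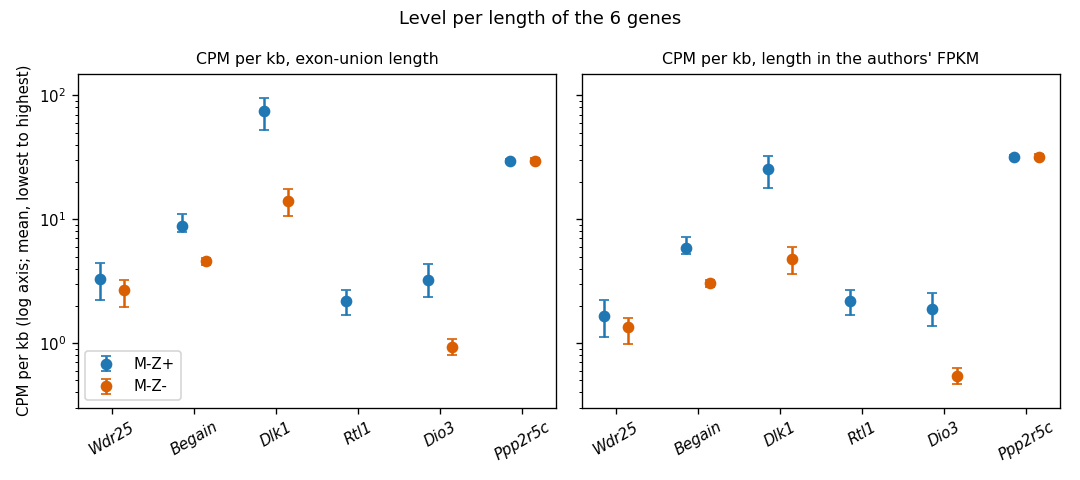
CPM per kb (vertical log axis) of the 6 genes, with the exon-union length on the left and the length in the FPKM of the authors on the right; points are means over 6 embryos and bars run from the lowest to the highest embryo. Dlk1 in M-Z+ embryos lies above Ppp2r5c on the left and overlaps it on the right; Rtl1 in M-Z- embryos, with 0 to 2 counts, is not drawn.

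To find how far along the chromosome other genes shifted, all genes within 2 Mb of the span of the 6 genes were tested. Of 76 such genes 48 were tested, and only Rian was called (0.0811% of all genes tested were called in either direction). Within the span from Wdr25 to Ppp2r5c, 4 of the 8 other genes were tested. These 4 lay between Dlk1 and Dio3 and were all noncoding RNAs or unnamed transcripts (Meg3, Rian, Mirg and Gm26945). Their median log2 fold change was 0.94. Gm26945 lies within the bounds of Rian, so these 2 rows are not separate stretches of the chromosome. It had 9 to 289 counts per embryo and a log2 fold change of 1.51 (SE 0.73), and its groups overlapped. Rian, a maternally expressed RNA that carries snoRNAs, was at 560.3 to 785 CPM in M-Z+ and at 989 to 1512 CPM in M-Z- embryos, and the groups did not overlap. It rose by 0.93 on the log2 scale (SE 0.11, edgeR adjusted p = 0.00163), a call made higher for 0.0437% of the genes tested, and 0.3% of them had groups that did not overlap with M-Z- higher. Meg3 was at 387 to 1212 CPM in M-Z+ and 484 to 2315 CPM in M-Z- embryos, and Mirg, a miRNA host transcript, at 21.7 to 36.6 and 30.4 to 82.7 CPM. The log2 fold changes of Meg3 and Mirg were 0.95 and 0.89 (edgeR adjusted p = 0.744 and 0.464), and their groups overlapped. Mirg was called by DESeq2 (log2 fold change 0.89, adjusted p = 0.0385), which called 0.201% of its genes. Dio3os, the antisense partner of Dio3, was not analysed here.

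Outside the span from Wdr25 to Ppp2r5c no gene was called. The 12 genes tested on the side before Wdr25 had log2 fold changes from -0.23 to 0.17 and a median of -0.029, and the 32 tested past Ppp2r5c had a median of -0.044. The nearest gene before Wdr25, Wars, which encodes a tRNA synthetase, had 55.4 ± 4.80 and 53.1 ± 3.94 CPM in M-Z+ and M-Z- embryos (SD, n = 6; edgeR adjusted p = 0.839). The nearest past Ppp2r5c, Dync1h1, the dynein heavy chain, had 541 ± 129 and 651 ± 154 CPM (SD, n = 6; edgeR adjusted p = 0.753). On these outer sides 4 of 44 genes had an unadjusted p below 0.05 in edgeR, Evl, Amn, Apopt1 and Xrcc3, beside 6.7% of all genes tested. The lowest of the 48 log2 fold changes was that of Amn at -1.24 (SE 0.47, edgeR adjusted p = 0.744), from 0 to 32 counts per embryo. The 4 genes of the region that were lower in M-Z- embryos thus stood between Wdr25 and Ppp2r5c, and Meg3, Rian and Mirg lay among them with higher values.

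**Figure D3:**
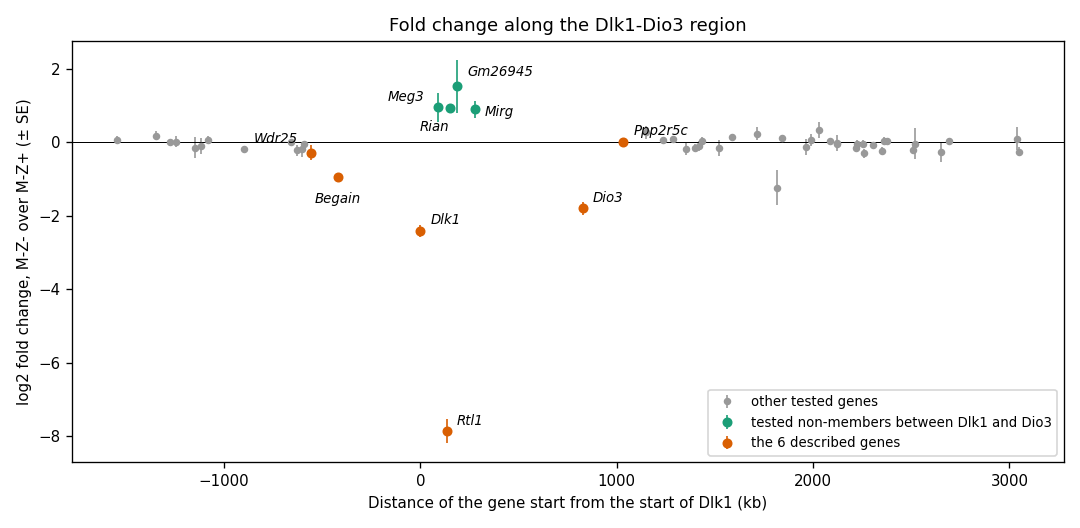
The log2 fold change of M-Z- over M-Z+ embryos with its SE (vertical axis) for the 54 genes tested within 2 Mb, against the distance of the gene start from the start of Dlk1 in kb. The described genes (orange) reach -7.87 at Rtl1, Meg3, Rian, Mirg and Gm26945 (green) lie above 0, and the other genes (grey) lie near 0 apart from Amn at -1.24.

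Genes that act with the products of the 6 genes were then examined by list, in the same fit over all genes, where 6.7% of the genes tested had an unadjusted p below 0.05 in edgeR. Of the Notch pathway 25 of 26 genes were tested, and none was called although 3 had an unadjusted p below 0.05 in edgeR. The receptors Notch2 and Notch3 had the highest levels, with log2 fold changes of 0.24 (SE 0.13) and 0.22 (SE 0.091). Adam17 was at 61.4 to 73.1 CPM in M-Z+ and 73.2 to 81.6 CPM in M-Z- embryos, narrowly without overlap. Its log2 fold change was 0.20 (SE 0.064, edgeR adjusted p = 0.685). Of all genes tested, 0.3% had groups that did not overlap with M-Z- higher. Among the 25 genes, 11 had log2 fold changes above 0 and 14 below. Dlk2, the closest relative of Dlk1, had a mean of 4.25 ± 0.624 CPM in M-Z+ embryos, beside 3.55 ± 0.316 in M-Z- (SD, n = 6; edgeR adjusted p = 0.749). Of 14 genes of adipocyte commitment 12 were tested, and none was called, with 3 at an unadjusted p below 0.05 in edgeR. These 3, Ebf2, Lpl and Pdgfra, were all higher in M-Z- embryos, with log2 fold changes of 0.59 (SE 0.25), 0.26 (SE 0.096) and 0.21 (SE 0.096). Of the 12 values, 6 lay above 0 and 6 below. Among the 12 genes Pdgfra, a receptor of mesenchymal cells, and Sox9 had the highest levels and log2 fold changes of 0.21 and -0.026.

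Of 18 genes of thyroid hormone transport, metabolism and response 15 were tested, and none was called, with 1 at an unadjusted p below 0.05 in edgeR. The receptor Thra and the corepressor Ncor1 had the highest levels, with log2 fold changes of -0.11 and 0.26. The other deiodinases were low in all embryos, with Dio2 at 3.62 ± 0.918 and 4.29 ± 0.814 CPM and Dio1 at 0.011 ± 0.027 and 0.028 ± 0.043 CPM in the M-Z+ and M-Z- groups (SD, n = 6). Relatives of Rtl1 that derive from the gag gene of retrotransposons were tested for 9 genes, and none was called, with 2 at an unadjusted p below 0.05 in edgeR. Peg10, an imprinted relative on another chromosome, was the highest of them, at 516 ± 76.7 and 606 ± 13.4 CPM in the M-Z+ and M-Z- groups (SD, n = 6). Its log2 fold change was 0.23 (SE 0.095). The groups of Peg10 did not overlap, at 366 to 582 CPM in M-Z+ and 591 to 626 CPM in M-Z- embryos. Of all genes tested, 0.3% had groups that did not overlap with M-Z- higher. Zcchc5 was the next highest with a log2 fold change of 0.18. Of the 9 relatives, 3 had values above 0 and 6 below.

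Of 8 other PP2A subunits (the remaining Ppp2r5 genes and those of the catalytic and scaffold subunits) all were tested and none was called, with 1 at an unadjusted p below 0.05 in edgeR. The catalytic subunit Ppp2ca and the scaffold subunit Ppp2r1a were the highest, with log2 fold changes of 0.015 and -0.039. Of 15 genes of postsynaptic scaffolds, which include the partners of BEGAIN, none was called and none had an unadjusted p below 0.05 in edgeR. Dlgap4 and Dlg1 were the highest, with log2 fold changes of -0.12 and 0.24. DESeq2 called no gene of these 6 lists either. The median log2 fold change of the lists lay between -0.11 and 0.082, beside -0.0072 over all genes tested.

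Whether the 6 genes varied together from embryo to embryo was examined within each genotype. Pearson's r of log2 CPM was computed for 25 pairs of the genes and for the pairs of each gene with Meg3 or Rian, 47 relations in all over 6 embryos each. Rtl1 was left out in M-Z- embryos because of its low counts. None of the 47 passed an adjusted p of 0.05 (exact permutation test, two-sided, smallest adjusted p = 0.131), and 8 had an unadjusted p below 0.05. They are therefore given as values.

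Dlk1 and Dio3 had a positive r in both genotypes. In M-Z+ embryos r was 0.84 (exact permutation p = 0.0347, adjusted p = 0.233, n = 6), with Spearman's rho of 0.89 (exact permutation p = 0.0333). In M-Z- embryos r was 0.85 (exact permutation p = 0.0597, adjusted p = 0.25, n = 6), with a rho of 0.77 (exact permutation p = 0.103). Without the 2 embryos farthest from the median of Dlk1, r was 0.73 in M-Z+ and 0.91 in M-Z- embryos. After the gene length slope had been removed by regression, r was 0.78 and 0.86, respectively. Begain and Dlk1 had an r of 0.16 in M-Z+ and -0.81 in M-Z- embryos (exact permutation p = 0.754 and 0.0639, n = 6; rho 0.26 and -0.6, p = 0.658 and 0.242), which were 0.12 and -0.48 with the slope removed. The coefficients of variation of Dio3 (12.9%) and Begain (5.83%) in M-Z- embryos were below their counting errors of 20.1% and 7.91%. Spread beyond counting error was thus not detectable there for either gene.

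Dlk1 and Meg3 had a negative r within either genotype. The r of Dlk1 and Meg3 was -0.89 in M-Z+ embryos (exact permutation p = 0.0153, adjusted p = 0.131, n = 6; rho -0.94, p = 0.0167) and -0.96 in M-Z- embryos (exact permutation p = 0.0153, adjusted p = 0.131, n = 6; rho -0.77, p = 0.103). Without the 2 embryos farthest from the median it was -0.59 and -0.73. Both genes also moved with the gene length slope of the library. The r of Dlk1 with the slope was -0.94 in each genotype (exact permutation p = 0.00694 and 0.0194, adjusted p = 0.0655 over 15 relations with the slope, n = 6; rho -0.83 and -0.71, p = 0.0583 and 0.136), and without the 2 embryos farthest from the median slope it was -0.68 in M-Z+ and -0.37 in M-Z- embryos. That of Meg3 with the slope was 0.87 and 0.94. With the slope removed, the r of Dlk1 and Meg3 was -0.46 in M-Z+ and -0.68 in M-Z- embryos (permutation of residuals, approximate p = 0.35 and 0.157, n = 6). The part of the slope in this relation and that of Meg3 cannot be told apart with these embryos.

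**Figure D4:**
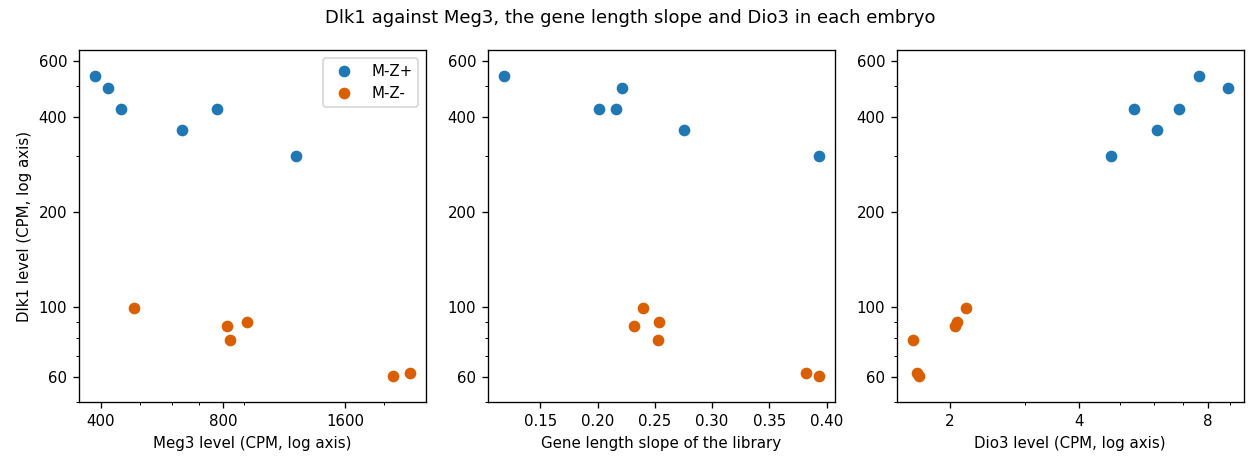
Dlk1 CPM of each embryo (vertical log axis) against Meg3 CPM (left, log axis), the gene length slope of its library (middle) and Dio3 CPM (right, log axis), with M-Z+ embryos in blue and M-Z- embryos in orange. The r of Dlk1 is -0.89 and -0.96 with Meg3, -0.94 and -0.94 with the slope and 0.84 and 0.85 with Dio3 (M-Z+ first).

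The other relations at an unadjusted p below 0.05 were spread over several genes. In M-Z+ embryos Dio3 had an r of -0.93 with Meg3 (exact permutation p = 0.00833, adjusted p = 0.131, n = 6; rho -0.94, p = 0.0167), and -0.91 with the slope removed. The r of Dio3 and Meg3 in M-Z- embryos was -0.72 (exact permutation p = 0.165, n = 6), and -0.34 with the slope removed. Rtl1 had an r of -0.96 with Ppp2r5c in M-Z+ embryos (exact permutation p = 0.00556, adjusted p = 0.131, n = 6; rho -0.83, p = 0.0583), and -0.79 without the 2 embryos farthest from the median of Rtl1. The coefficient of variation of Ppp2r5c in these embryos, 2.50%, was close to its counting error. With Dlk1, Rtl1 had an r of 0.15 in M-Z+ embryos (exact permutation p = 0.79, n = 6), and its r with Dio3 was 0.64 (exact permutation p = 0.163, n = 6). With the slope removed these were 0.55 and 0.92 (permutation of residuals, approximate p = 0.2875 and 0.0222). Rtl1 and Meg3 had an r of -0.45 in M-Z+ embryos (exact permutation p = 0.386, n = 6), and -0.97 with the slope removed (permutation of residuals, approximate p = 0.00139). No relation passed an adjusted p of 0.05 with the slope removed. In M-Z- embryos Wdr25 had an r of 0.89 with Dlk1 (exact permutation p = 0.00972, adjusted p = 0.131, n = 6; rho 0.94, p = 0.0167), which was 0.44 with the slope removed. Dlk1 had an r of -0.91 with Rian in M-Z- embryos and -0.75 in M-Z+ embryos (exact permutation p = 0.0167 and 0.0875, n = 6; rho -0.77 and -0.54, p = 0.103 and 0.297), which were -0.47 and 0.17 with the slope removed. The relation of Wdr25 with Meg3 in M-Z- embryos, with an r of -0.79 (exact permutation p = 0.0486, adjusted p = 0.25, n = 6; rho -0.6, p = 0.242), was 0.086 with the slope removed.

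**Figure D5:**
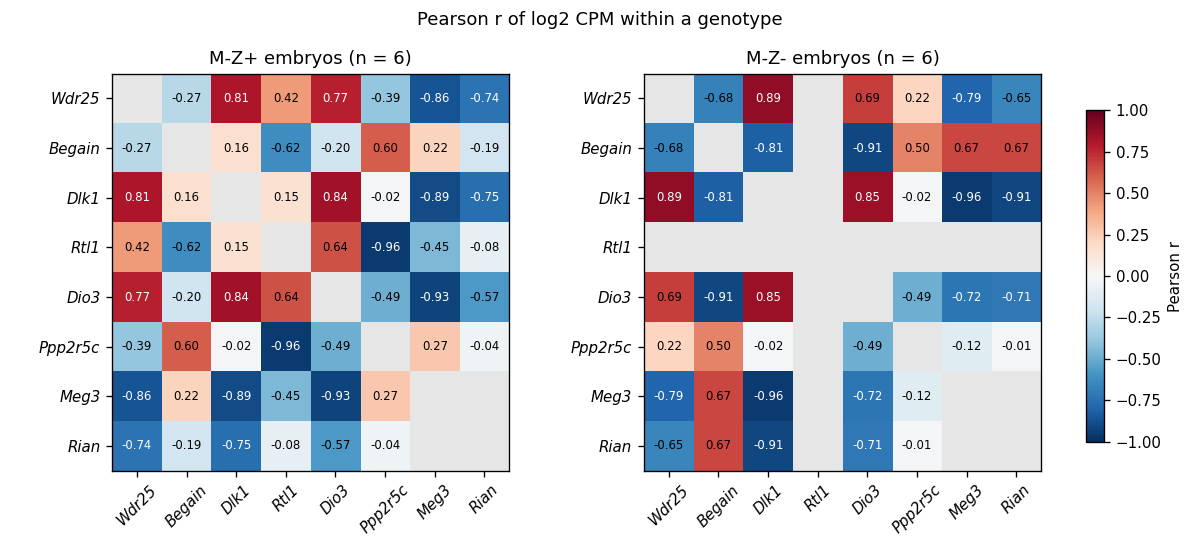
Pearson's r of log2 CPM between the 6 genes, Meg3 and Rian over the 6 M-Z+ embryos (left) and the 6 M-Z- embryos (right), from blue (-1) to red (1); grey cells were not computed. Dlk1 and Dio3 are at 0.84 and 0.85, and Dlk1 and Meg3 at -0.89 and -0.96.

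Across all 13473 genes with enough counts, the genes most like Dlk1 by the mean of the r within the 2 genotypes were Plin2 (0.993), Ctsz (0.992) and Nucb1 (0.991), on chromosomes 4, 2 and 7. Dio3 ranked 1276th and Wdr25 1277th by this measure. The genes most like Dio3 were Ctsk (0.98), Capn1 (0.952) and Galnt16 (0.95), and Dlk1 ranked 215th. The genes most like Begain were Rexo4 (0.903), Nusap1 (0.898) and Zfp825 (0.88), and Dlk1 ranked 10827th. None of these 9 genes was called between M-Z- and M-Z+ embryos, and their log2 fold changes were between -0.23 and -0.037. These likenesses rest on 6 embryos in each genotype, and all genes share the libraries and their gene length slope. The spread of Dio3 and of Begain in M-Z- embryos was below what counting error alone would give.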

How the data were processed

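The RNA-seq libraries of 6 M-Z+ and 6 M-Z- embryos were used, with groups and replicate numbers from the sample labels. The authors deposited raw counts per gene, and these counts were used for every comparison. The authors also deposited FPKM values, which came back from the counts and 1 length per gene to within 0.1% for all 238855 values above 0.01, and they were used only for those lengths. The submitters' processing notes list HISAT2 2.0.4 and mm10 without a role. How reads were assigned to genes, with or without strand, and by which annotation is not given in the sources used here. As deposited, 27 symbols had been turned into dates.

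edgeR 4.0.16 in R 4.3.3 was used (TMM normalization, filterByExpr, glmQLFit, glmQLFTest, Benjamini-Hochberg adjustment over 16026 genes), with M-Z- compared with M-Z+ and no covariates. Standard errors were derived from the quasi-likelihood F (absolute log2 fold change over the root of F). CPM used the TMM library sizes, and log2 CPM for correlations had 0.5 added. Exact permutation tests and figures used Python 3.11.15, scipy 1.17.1 and matplotlib 3.10.9. With the slope removed, the residuals of the regression were permuted, so those p-values are approximate and not exact. The gene length slope used genes with a mean of at least 50 counts, and so did the ranking by likeness. The lengths by exon union are those of GENCODE vM1. Alternatives were DESeq2 1.42.0, RLE normalization, no filter on low counts, the replicate number as a block, each library's gene length slope in the model, and each embryo left out; correlations were repeated with CPM by total counts, on residuals from the slope and with each embryo left out. The 3 libraries of the steepest slope were left out in an alternative that was added with the data in view. The fits were tested on simulated counts.

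The 6 genes, the gene lists and the tests were chosen with earlier results of these data known. The genes named were set by rule: the 6 genes, Zfp57, Meg3, Rian, Mirg and Dio3os, every called gene among the neighbours and the nearest tested gene on each side, every called gene and the 2 genes of the highest mean CPM of each list, and the 3 genes most like Dlk1, Begain and Dio3. Gm26945, Gm28498, Evl, Amn, Apopt1, Xrcc3, Dlk2, Adam17, Ebf2, Lpl, Dio1, Dio2 and the markers named were added after their values were seen. Count intervals and floors hold for counting error alone, because PCR copies were not separated from molecules. P-values measure the spread between these embryos, of which the labels give no litter.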

Additional observations from a re-analysis of the deposited data

Results flagged for a closer look

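Begain in M-Z+ replicate 5 was at 29.0 CPM, whereas the other 5 M-Z+ embryos were at 20.8 to 23.7 CPM, a gap that is 0.647 of the whole range of the group. It was the only sample far from the others by this measure (Dixon's test at the 95% level) among 19 groups of 6 embryos that were examined, over the 6 genes, Zfp57, Meg3, Rian and Mirg in each genotype. Chance alone flags about 1 in 20 such groups. Begain in this embryo stands farther from the M-Z- embryos than in any other M-Z+ embryo.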

How the results depend on the processing

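Rian was called higher under every alternative of the fit across genes, each embryo left out included. The values of the 6 genes under the alternatives are descriptions, since the genes were chosen from this contrast, and with an embryo left out they lay between -0.98 and -0.87 for Begain, between -2.51 and -2.34 for Dlk1 and between -1.89 and -1.70 for Dio3. With each library's gene length slope in the model they were -0.95 for Begain, -2.23 for Dlk1 and -1.66 for Dio3. The number of changed genes over all genes tested was 13, and it was 40 with DESeq2, 21 with the replicate block, 24 with each library's gene length slope in the model, and 11 to 15 with an embryo left out. DESeq2 called 2 genes among the neighbours and among the RNAs of the region, Rian and Mirg, in place of 1. The log2 fold change of Rtl1 was -8.10 with DESeq2, -8.46 to -7.65 with an embryo left out and -8.92 without the 3 libraries of the steepest slope, since its M-Z- value rests on 4 counts. That of Zfp57 ranged from -0.24 to 0.0042 with an embryo left out, and the value of 0.0042 was obtained without M-Z+ replicate 4. Between 5 and 9 of the 47 correlations had an unadjusted p below 0.05 with an embryo left out, and 5 had one without M-Z+ replicate 6 or without M-Z- replicate 3. The correlation of Wdr25 with Meg3 in M-Z- embryos was 0.0857 on residuals from the gene length slope. For the counts of genes and of correlations and for Wdr25 with Meg3 the cause was not tested. The replicate numbers were not shown to pair the embryos, since the correlation of deviations between same-numbered embryos was from -0.00077 to 0.70 and only replicates 3 and 6 correlated best with their own number. The replicate block left the log2 fold change of Dlk1 at -2.41. Depth limits Rtl1 in M-Z- embryos, with 0 to 2 counts, and Dio3, with 22 to 27.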
